A study of Mus musculus with 6 samples.

Results

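The interferon-inducible GTPases described here are 10 genes, Gbp2, Gbp3, Gbp4, Gbp5, Gbp6, Gbp7, Gbp9, Igtp, Irgm1 and Iigp1, taken by symbol from a table of 25638 genes, and all 10 were found there and tested. They were measured by RNA sequencing in OT-I cells, mouse CD8+ T cells with a transgenic receptor for an ovalbumin peptide, labelled as wild type. In all groups the T cells were stimulated with the peptide OVA257-264 for 48 hours, together with TANs, with TAMos or with vehicle, and were purified before RNA was taken. TANs were sorted as CD11b+Ly6G+Ly6Clow cells and TAMos as CD11b+Ly6G-Ly6Chigh cells, both from the spleen, not from the tumour, of mice bearing LLC (Lewis lung carcinoma) tumours. The labels do not spell out the names TAN and TAMo. Each group had 2 libraries. The age of the mice is not given, and since nothing says that a pair of libraries came from separate cultures or mice, p-values reflect the spread between libraries only, which may be technical.

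Guanylate-binding proteins (GBPs) and immunity-related GTPases (IRGs) are families of GTP-hydrolysing proteins that interferons induce, interferon-gamma above all, in part through the transcription factor IRF1. In mouse cells they gather on vacuoles and bacteria in the cytosol, break open the compartments of intracellular parasites and pass on signals to inflammasomes. Activated CD8+ T cells make interferon-gamma and also carry the receptor for it.

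Expression was given as FPKM, fragments scaled by gene length and by library size, which allows levels of different genes to be set side by side. Read back from the low values, depth was 41.6 to 45.1 M reads per library. For TAMo replicate 1 this depth is uncertain, because 98.8% of its recovered low counts were even numbers (the other 5 libraries had 60.5% to 63.8%). The lowest value of any of the 10 genes, that of Iigp1 in TAN replicate 2, stood for about 612 reads over the annotated exons. Changes were tested with limma on log2(FPKM + 1) over the 10727 genes that reached 1 FPKM in 2 or more libraries, and a gene was called at a Benjamini-Hochberg adjusted p under 0.05. Folds are ratios of mean FPKM, values after ± are standard errors of log2 changes (n = 2 libraries a group), and intervals are 95% intervals of the limma fit.

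By their median change, the GTPase transcripts moved in opposite directions in the co-cultures. Those called both lower with TANs and higher with TAMos were Gbp2, Gbp4, Gbp6, Gbp9, Irgm1 and, with a TAN call that barely passed, Igtp. With TANs 7 of the 10 fell, none rose and 3 did not pass, where 11% of all genes tested were called lower and 9.37% higher. In 9 of the 10 both TAN libraries lay below both vehicle libraries, as in 33.3% of all genes tested. With TAMos 9 rose, none fell and 1 did not pass, where 45.7% of all genes tested were called higher and 40.7% lower. For all 10 both TAMo libraries lay above both vehicle libraries, as in 49% of all genes tested. The median log2 change of the 10 genes was -0.59 with TANs and 1.54 with TAMos, while that of all genes tested was -0.0050 and 0.057. Added over the 10 genes, the transcripts reached 188 and 181 FPKM in the TAN libraries, 827.8 and 827.8 FPKM in the TAMo libraries and 235 and 236 FPKM in the vehicle libraries. Both comparisons use the same vehicle libraries. Since these are bulk samples, fewer cells that transcribe a gene and less RNA per cell cannot be told apart.

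**Figure D1:**
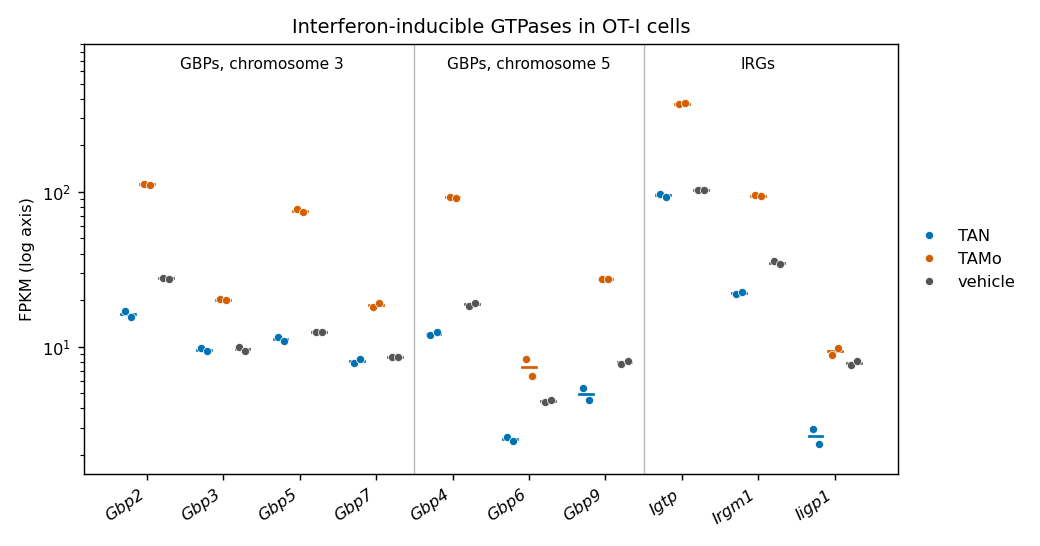
FPKM of the 10 GTPase genes (vertical log axis) in OT-I cells cultured with TANs (blue), TAMos (orange) or vehicle (grey), with 1 point per library and a line at the mean of the 2 libraries. The TAMo points lie highest for every gene, and the TAN points of Gbp2, Gbp4, Gbp6, Gbp9, Irgm1 and Iigp1 lie well below those of vehicle.

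Of the 4 genes described here from the chromosome 3 GBP cluster, Gbp2 alone was called lower with TANs, and all 4 rose with TAMos. Gbp2 encodes a lipid-anchored GBP that coats and helps to lyse the vacuole of Toxoplasma in mouse cells (GRCm38 chromosome 3, 142620602 to 142638008, plus strand). It had 17.0 and 15.7 FPKM in the TAN libraries, 113 and 111 FPKM in the TAMo libraries and 27.7 and 27.6 FPKM in the vehicle libraries, and no 2 groups overlapped. It fell by 41.0% with TANs (log2 change -0.73 ± 0.043, limma adjusted p = 0.000212) and was 4.05-fold higher with TAMos (1.98 ± 0.043, adjusted p = 8.94e-09).

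Gbp5, known in mouse for promoting NLRP3 inflammasome assembly, lies at the start of the same cluster (142493978 to 142522344). Its values were 11.5 and 11.0 FPKM with TANs, 77.1 and 74.4 FPKM with TAMos and 12.4 and 12.5 FPKM with vehicle. The TAMo libraries stood far above the rest, a 6.07-fold difference from vehicle that was the largest of the 10 (log2 change 2.51 ± 0.043, limma adjusted p = 3.25e-09). The TAN libraries lay just under those of vehicle without passing the test (-0.14, interval -0.24 to -0.036, adjusted p = 0.0644).

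Gbp7, linked in macrophages to assembly of the NADPH oxidase (142530342 to 142550149), and its neighbour Gbp3 (142560026 to 142573209), which is also found on Toxoplasma vacuoles, had smaller changes. Gbp7 had 7.81 and 8.35 FPKM with TANs, 18.2 and 19.2 FPKM with TAMos and 8.64 and 8.66 FPKM with vehicle. Gbp3 had 9.75 and 9.33 FPKM with TANs, 20.3 and 20.0 FPKM with TAMos and 9.91 and 9.34 FPKM with vehicle, so that its TAN and vehicle libraries overlapped, the only such overlap among the 10 genes. Both were called higher with TAMos, 2.16-fold for Gbp7 (log2 change 1.03 ± 0.057, limma adjusted p = 1.23e-06) and 2.09-fold for Gbp3 (0.99 ± 0.053, adjusted p = 1.02e-06). With TANs neither passed, at -0.088 (interval -0.22 to 0.046, adjusted p = 0.32) for Gbp7 and -0.011 (interval -0.14 to 0.11, adjusted p = 0.911) for Gbp3. Annotated exons of Gbp7 share 11.4% of their bases with the gene model Gm43802, and whether reads of the 2 were told apart there is not known.

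**Figure D2:**
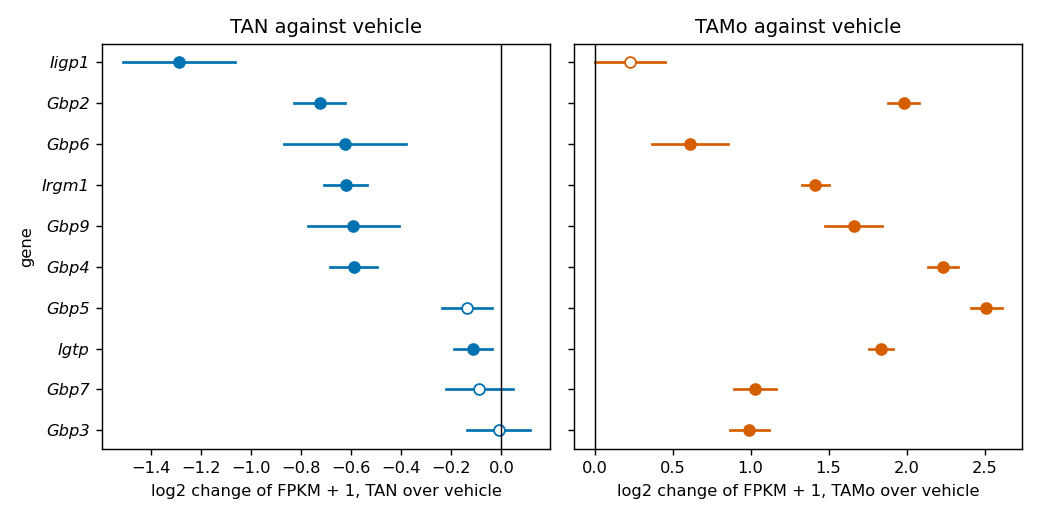
Change of each of the 10 GTPase genes on the log2(FPKM + 1) scale (horizontal axis, with different scales in the panels) for TAN against vehicle (left) and TAMo against vehicle (right), with bars for 95% intervals. Filled points passed an adjusted p of 0.05 and open ones did not: with TANs Gbp3, Gbp5 and Gbp7 are open, and with TAMos only Iigp1.

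Upstream of the start, interferon-responsive genes often carry the interferon-stimulated response element, whose core reads GAAA, any 2 bases and GAAA again on either strand, and a gamma-activated site, whose core reads TTCNNNGAA and is its own reverse complement. RefSeq promoter sequence (GRCm38.p6, 250 bases before to 50 bases after the start) was at hand for 6 of the 10 genes, Gbp2, Gbp3, Gbp5, Gbp7, Igtp and Irgm1. All 6 genes held the response element core in at least 1 promoter, Gbp3 in 1 of its 2, and so did 4.0% of the 26742 genes with a RefSeq promoter of this length (3.45% of 32544 promoters). Gbp5, Gbp7 and Igtp, 3 of the 6, held TTCNNNGAA, as did 9.6% of all genes (8.33% of promoters). The 30 bases around the match are shown for the pair that differed most in the TAN comparison on chromosome 3, Gbp2 and Gbp3, for their neighbours Gbp5 and Gbp7, and for Irgm1 and Igtp on chromosome 11. Each is written 5′ to 3′ on the strand of its gene, with the match in capitals.
Gbp2 (chr3:142620594-142620623, plus strand): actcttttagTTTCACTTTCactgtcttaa
Gbp5 (chr3:142496759-142496788, plus strand): acttgtgtagTTTCAATTTCagtttagaga
Gbp7 (chr3:142530273-142530302, plus strand): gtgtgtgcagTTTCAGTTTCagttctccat
Gbp3 (chr3:142559992-142560021, plus strand): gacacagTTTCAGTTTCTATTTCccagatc
Irgm1 (chr11:48871428-48871457, minus strand): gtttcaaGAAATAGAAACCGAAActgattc
Igtp (chr11:58199512-58199541, plus strand): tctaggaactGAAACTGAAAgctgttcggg
The capitals begin 59 bases before the RefSeq start in Gbp2, 165 in Gbp5, 53 in Gbp7, 45 in Gbp3, 30 in Irgm1 and 34 in Igtp. The RefSeq starts differ from the ends of the GENCODE gene models given here, and the windows of Gbp2, Gbp5 and Irgm1 overlap the GENCODE model of their gene. In Gbp3 and Irgm1 the capitals hold 2 matches that overlap each other. The core lies on the strand opposite to the gene in the 4 GBP genes, where TTTC takes the place of GAAA, and on the strand of the gene in the 2 IRG genes. Genes called lower with TANs (Gbp2, Irgm1, Igtp) and genes that did not pass (Gbp3, Gbp5, Gbp7) both carried it. A match in these letters is a description of the window and not a bound site.

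The 3 genes described here from the chromosome 5 GBP cluster, Gbp4, Gbp9 and Gbp6, all fell with TANs and rose with TAMos. Gbp4 (105115767 to 105139586, minus strand) had 11.9 and 12.4 FPKM with TANs, 92.3 and 91.8 FPKM with TAMos and 18.5 and 19.2 FPKM with vehicle. The TAMo libraries were highest and the TAN libraries lowest, without overlap. It fell by 35.4% with TANs (log2 change -0.59 ± 0.040, limma adjusted p = 0.000369) and was 4.89-fold higher with TAMos (2.23 ± 0.040, adjusted p = 3.99e-09), the next largest rise after Gbp5.

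Gbp9, another GBP recruited to parasite vacuoles in mouse cells, overlaps Gbp4 in the annotation (105077630 to 105139539). It had 5.41 and 4.52 FPKM with TANs, 27.2 and 27.4 FPKM with TAMos and 7.79 and 8.15 FPKM with vehicle. Its groups did not overlap, and it changed by -0.59 ± 0.077 with TANs (limma adjusted p = 0.00351) and 1.66 ± 0.077 with TAMos (adjusted p = 4.6e-07).

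Gbp6, a GBP of antibacterial defence in mouse macrophages, was the lowest of the 10 genes by mean FPKM in every group (105270702 to 105293698). It had 2.62 and 2.47 FPKM with TANs, 8.29 and 6.52 FPKM with TAMos and 4.42 and 4.51 FPKM with vehicle, with the wider spread in the TAMo libraries but no overlap. It fell by 43.1% with TANs (-0.63 ± 0.10, limma adjusted p = 0.00826) and was 1.66-fold higher with TAMos (0.61 ± 0.10, adjusted p = 0.00084). The TAN call was lost without TAN replicate 2 (adjusted p = 0.061), vehicle replicate 1 (0.0561) or vehicle replicate 2 (0.058). Of the 100-base stretches of its longest transcript 51.3% also occur in other genes, mainly in the model Gm43302, so its own level is uncertain.

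Among the IRG genes, Irgm1 and Igtp encode regulatory GTPases that keep the effector GTPases inactive on the cell's own membranes, and Iigp1 encodes an effector that loads onto parasite vacuoles. Irgm1 (chromosome 11, 48861968 to 48871683) had 22.0 and 22.6 FPKM with TANs, 95.5 and 93.9 FPKM with TAMos and 35.7 and 34.1 FPKM with vehicle, in the same order as Gbp2 and without overlap. It fell by 36.1% with TANs (log2 change -0.62 ± 0.036, limma adjusted p = 0.000212) and was 2.71-fold higher with TAMos (1.42 ± 0.036, adjusted p = 2.1e-08).

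Igtp, also called Irgm3 (chromosome 11, 58199556 to 58207591), was the most abundant of the 10 in every library. It had 97.5 and 92.4 FPKM with TANs, 367 and 373 FPKM with TAMos and 102 and 103 FPKM with vehicle, so that the TAMo libraries stood apart and the TAN libraries lay close under vehicle. With TAMos it was 3.60-fold higher (1.84 ± 0.032, limma adjusted p = 3.7e-09) and ranked 205 among all genes by mean FPKM, against 980 with vehicle. With TANs it fell by 7.72%, a small change that barely passed (-0.12 ± 0.032, adjusted p = 0.0462). That call was lost without any 1 of the TAN libraries (adjusted p = 0.0562 and 0.235) or of the vehicle libraries (0.15 and 0.185) and under 6 of the other 13 alternatives, and Igtp shares 8.01% of its exon bases with Irgm2.

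Iigp1 (chromosome 18, 60376027 to 60392634) showed the largest fall with TANs and the smallest change with TAMos. It had 2.93 and 2.35 FPKM with TANs, 8.89 and 9.88 FPKM with TAMos and 7.62 and 8.14 FPKM with vehicle. With TANs it was 2.98-fold lower (log2 change -1.29 ± 0.095, limma adjusted p = 0.000499), and of the 10727 genes tested 2 had a lower change. With TAMos its libraries lay just above those of vehicle, at 0.22 (interval 0.00024 to 0.45, adjusted p = 0.0573). This difference did not pass as tested, but was called with libraries rescaled to the same sum (0.41, adjusted p = 0.00424, where the median of all genes was 0.25), without mitochondrial genes (0.31, adjusted p = 0.015), in a fit of the 2 groups alone (adjusted p = 0.0285) and without TAN replicate 1 (0.0331), TAN replicate 2 (0.0324) or TAMo replicate 1 (0.0477).

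The order of levels was largely kept across the groups. With TANs and with vehicle, mean FPKM ran from Igtp through Irgm1, Gbp2, Gbp4, Gbp5, Gbp3, Gbp7, Gbp9 and Iigp1 to Gbp6, and with TAMos Gbp2 stood above Irgm1 and Gbp9 above Gbp3. Neighbours in this order had separate libraries in every group except Iigp1 and Gbp6 with TANs and Gbp9 and Iigp1 with vehicle, whose libraries overlapped. Igtp alone made up 51.7% and 51.0% of the summed FPKM of the 10 genes in the TAN libraries, 44.4% and 45.1% in the TAMo libraries and 43.5% and 43.9% in the vehicle libraries.

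Ratios between genes of the same library, which no scaling of libraries can alter, differed between the groups for several pairs. Gbp2 stood at 1.74 and 1.68 times the FPKM of Gbp3 with TANs, 5.56 and 5.57 times with TAMos and 2.80 and 2.95 times with vehicle. The ratio of Iigp1 to Irgm1 was 0.133 and 0.104 with TANs and 0.093 and 0.105 with TAMos, against 0.214 and 0.239 with vehicle. Gbp5 was 1.47 and 1.32 times as high as Gbp7 with TANs, overlapping the 1.44 and 1.44 times of vehicle, and 4.24 and 3.87 times with TAMos. With 2 libraries a group, the exact two-sided permutation test of such a ratio cannot go below p = 0.333, the value for each of these comparisons except that of Gbp5 to Gbp7 with TANs against vehicle (p = 1).

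Set directly against each other, the TAN libraries were lower than the TAMo libraries for all 10 genes, where 46% of all genes tested were called lower, and no library of one group overlapped the other, as in 49.4% of all genes tested in that direction. The log2 change of TAN against TAMo ranged from -2.82 ± 0.040 for Gbp4 (limma adjusted p = 1.54e-09) to -1.0 ± 0.053 for Gbp3 (adjusted p = 9.83e-07), with a median of -2.0, and that of all genes tested was -0.065. Gbp2 and Gbp5 followed Gbp4 with -2.71 and -2.65. Gbp3, Gbp7 and Gbp6, with -1.12 for Gbp7 and -1.24 for Gbp6, differed least.

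Of the other genes of these and kindred GTPase families, Gbp8, Gbp10, Irgm2, Tgtp1, Tgtp2 and Mx2 were called both lower with TANs and higher with TAMos. Of 20 further genes on a list of interferon-inducible GTPases and relatives, 19 were in the table and 13 were tested. With TANs 9 of the 13 fell, none rose and 4 did not pass (median -0.61), beside 11% of all genes tested called lower and 9.37% higher. With TAMos 9 rose, 1 fell and 3 did not pass (median 0.71), beside 45.7% of all genes tested called higher and 40.7% lower. Gm12185, counted as a fall in both, reached 1 FPKM only with vehicle. Against TAMo, 11 of the 13 were lower with TAN, beside 46% of all genes tested.

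Gbp8, in the chromosome 5 cluster, had 6.24 and 6.55 FPKM with TANs, 31.8 and 31.5 FPKM with TAMos and 10.04 and 10.6 FPKM with vehicle. Tgtp1, named T-cell-specific GTPase, an IRG of the effector type, had 11.3 and 12.4 FPKM with TANs, 61.5 and 68.4 FPKM with TAMos and 20.7 and 18.7 FPKM with vehicle. Of its 100-base stretches 83.3% also occur elsewhere, mainly in Tgtp2, which had 3.63 and 4.17, 31.4 and 25.3, and 7.01 and 7.16 FPKM in the same groups. Irgm2, the third regulatory IRG, changed by -0.24 ± 0.050 with TANs and 1.14 ± 0.050 with TAMos (limma adjusted p = 0.0178 and 3.32e-07), and its TAN call was lost without any 1 of the TAN or vehicle libraries (adjusted p up to 0.0917). Gbp10 had 0.909 and 0.937 FPKM with TANs, 4.16 and 4.96 FPKM with TAMos and 2.58 and 1.93 FPKM with vehicle. It changed by -0.75 ± 0.12 with TANs and 0.78 ± 0.12 with TAMos (limma adjusted p = 0.00672 and 0.000465). With 0.1 instead of 1 added to FPKM, its TAN change was -1.19. Of its stretches 70.9% were shared, mainly with Gm43302.

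Mx1 and Mx2, genes of a dynamin-like GTPase family of antiviral defence, fell with TANs, as Iigp1 did, while with TAMos Mx2 rose and Mx1 did not pass (0.069). The GENCODE annotation types Mx2 as a polymorphic pseudogene. Mx1 had 1.01 and 1.09 FPKM with TANs, 3.20 and 3.48 FPKM with TAMos and 3.69 and 2.65 FPKM with vehicle. Mx2 changed by -1.21 ± 0.084 with TANs (limma adjusted p = 0.000397) and by 0.36 ± 0.084 with TAMos (adjusted p = 0.00505). Irgq, a relative of the IRGs, was 5.94-fold higher with TAMos (2.09 ± 0.084, adjusted p = 2.18e-07) and did not pass with TANs (0.024, interval -0.17 to 0.22). Irgc1, known from testis, passed in none of the 3 comparisons unless libraries were rescaled to the same sum (0.30 with TAMos) and lay between 0.872 and 1.35 FPKM in all libraries. Gm12185 fell in both co-cultures (-0.61 and -0.51), its TAN call being lost with no filter on low values (adjusted p = 0.0629) and without TAN replicate 1 or either vehicle library (up to 0.103). Gvin1, a giant GTPase whose stretches are to 97.8% shared with other genes, fell with TANs (-0.31), a call lost with the replicate block (adjusted p = 0.0578) and without any 1 of the TAN or vehicle libraries (up to 0.145). The gene models 9930111J21Rik1 and 9930111J21Rik2 rose with TAMos (0.58 and 0.71) and did not pass with TANs (-0.32 and -0.10), except 9930111J21Rik1 with the replicate block (adjusted p = 0.0455). Of their 100-base stretches 64.6% and 40.3% also occur in other genes, mainly in each other, so the rises may not be separate. The level of 9930111J21Rik1 was low, between 0.825 and 2.80 FPKM in all libraries. The 6 listed genes that were too low to test, Gbp2b and Gbp11 among them, stayed at or under 0.807 FPKM in every library.

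**Figure D3:**
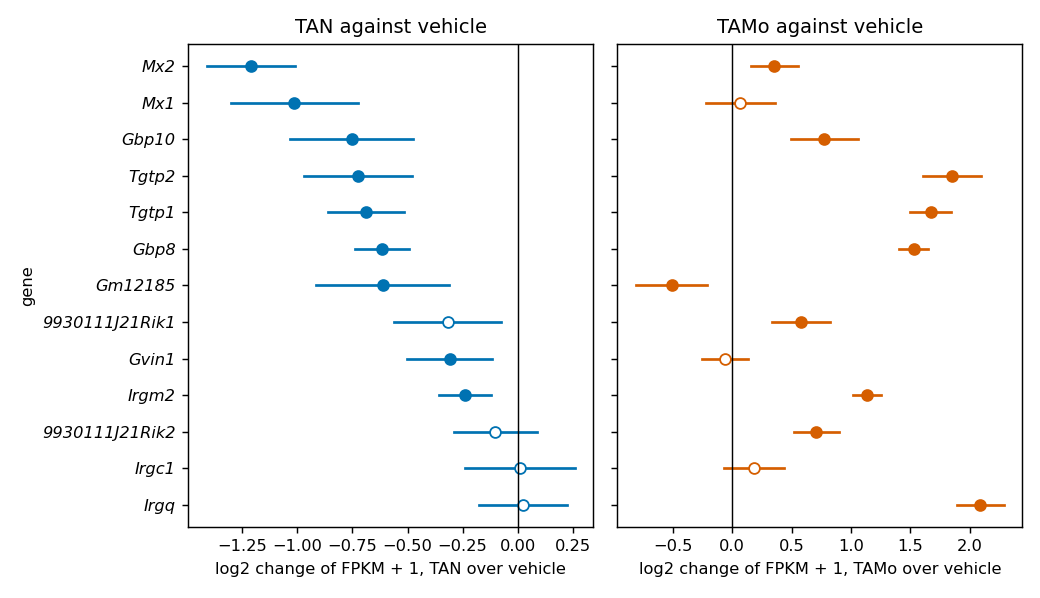
Change of the 13 further GTPase genes that could be tested on the log2(FPKM + 1) scale (horizontal axis, with different scales in the panels) for TAN against vehicle (left) and TAMo against vehicle (right), with 95% intervals as bars and filled points for an adjusted p under 0.05. With TANs 9 points are filled, all left of 0, and with TAMos 10 are filled, of which Gm12185 alone lies left of 0.

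The gene of the inducing cytokine moved against the GTPases in both co-cultures. Ifng had 1126 and 1147 FPKM with TANs, 225 and 227 FPKM with TAMos and 677 and 683 FPKM with vehicle, so that it was highest where the GTPases were lowest and lowest where they were highest. With TAMos it was 3.01-fold lower (log2 change -1.59 ± 0.025, limma adjusted p = 2.15e-09), and with TANs it was 1.67-fold higher (0.74 ± 0.025). These are transcript levels, and the cytokine itself was not measured.

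Irf1, the gene of a transcription factor that acts on GBP promoters, moved with the GTPases. It had 57.5 and 56.6 FPKM with TANs, 177 and 172 FPKM with TAMos and 80.9 and 84.3 FPKM with vehicle (log2 change -0.53 ± 0.033 and 1.07 ± 0.033, limma adjusted p = 0.000266 and 4.79e-08). Jak2, a kinase at the interferon-gamma receptor, was 3.96-fold higher with TAMos (1.93 ± 0.035) and did not pass with TANs (-0.058, interval -0.14 to 0.025). Of 14 tested genes of interferon-gamma signalling, 3 rose and 5 fell with TANs (median -0.049), and 10 rose and 4 fell with TAMos (median 0.88). Of all genes tested, 9.37% were called higher and 11% lower with TANs, and 45.7% higher and 40.7% lower with TAMos. Irf8 fell in both co-cultures, and Socs3, a feedback inhibitor, rose with TANs and fell with TAMos.

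**Figure D4:**
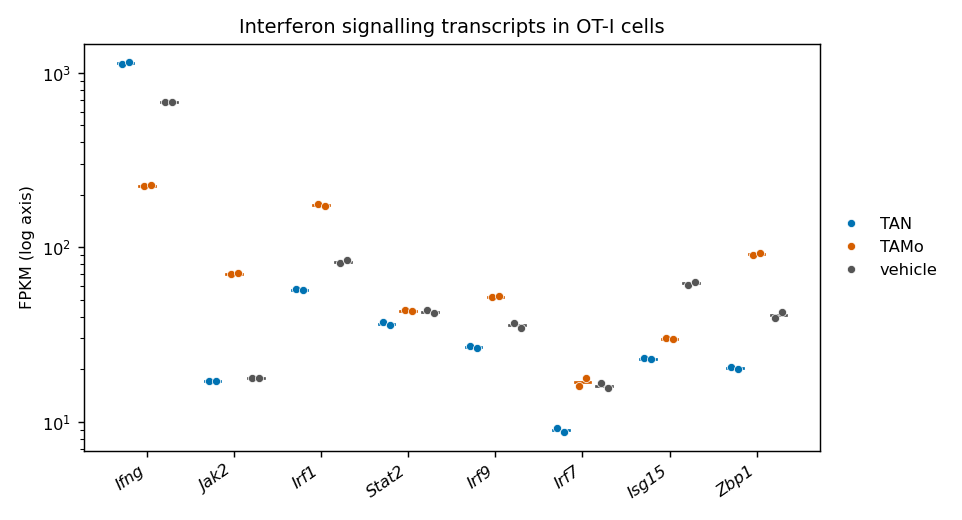
FPKM (vertical log axis) of interferon signalling genes in OT-I cells with TANs (blue), TAMos (orange) or vehicle (grey), 1 point per library with a line at the mean of 2 libraries. Ifng is highest with TANs and lowest with TAMos, while Irf1, Irf9 and Zbp1 show the reverse order, and for Stat2 and Irf7 the TAMo libraries lie close to those of vehicle.

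Genes of the type I interferon branch went down with TANs where they passed. Of 10 tested, 6 fell and none rose with TANs (median -0.20), beside 11% of all genes tested called lower and 9.37% higher. With TAMos 5 rose and 3 fell (median 0.14), near the 45.7% higher and 40.7% lower of all genes tested. The 3 interferon genes on that list, Ifnb1, Ifna2 and Ifna4, were too low to be tested. Irf9, part of the complex that binds the response element, had 27.0 and 26.4 FPKM with TANs, 51.5 and 52.6 FPKM with TAMos and 37.0 and 34.5 FPKM with vehicle, and passed in both comparisons. Stat2, its partner, changed by -0.23 ± 0.037 with TANs (limma adjusted p = 0.00774), a call lost without TAN replicate 2 (0.0604) or vehicle replicate 1 (0.0591), and by 0.018 (interval -0.070 to 0.11) with TAMos, where it was called at the same sum (0.22) and without mitochondrial genes (0.11, adjusted p = 0.0197). Irf7 fell by 0.78 on the log2 scale with TANs and did not pass with TAMos (0.065, interval -0.091 to 0.22), although called at the same sum (0.26). Isg15, an interferon-induced ubiquitin-like modifier, was 2.70-fold lower with TANs (-1.40 ± 0.037, limma adjusted p = 1.01e-05). With TAMos Isg15 differed in direction from the GTPases and was 2.08-fold lower (-1.03 ± 0.037, adjusted p = 1.05e-07).

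Counts for lists of partners of the GTPases stand beside 11% of all genes tested lower and 9.37% higher with TANs, and 45.7% higher and 40.7% lower with TAMos. Of 7 tested genes of inflammasomes and cell-autonomous defence, 2 fell with TANs, Zbp1 and Casp4, and 3 rose and 3 fell with TAMos, near the shares of all genes. Zbp1, a sensor of nucleic acid, had 20.5 and 20.2 FPKM with TANs, 90.8 and 92.8 FPKM with TAMos and 39.2 and 42.6 FPKM with vehicle, an order like that of Gbp2. Casp4, the mouse caspase-11 that GBPs help to activate, changed by -0.37 ± 0.061 with TANs (limma adjusted p = 0.00855) and 0.26 ± 0.061 with TAMos (0.00501), the TAN call being lost without vehicle replicate 1 (0.0557) or vehicle replicate 2 (0.0569). Of 12 genes of the autophagy conjugation machinery that places GTPases on vacuoles, 2 rose and 2 fell with TANs, and 8 rose and 2 fell with TAMos. Atg16l1 fell with both (-0.20 and -0.97), its TAN call being lost without any 1 of the TAN or vehicle libraries (adjusted p up to 0.0691), and Map1lc3a passed with neither (-0.25 and 0.23), except with TAMos at the same sum (0.36). Of 8 genes of protein prenylation, the lipid attachment on which Gbp2 depends, 1 rose and 1 fell with TANs, and 4 rose and 3 fell with TAMos, again near those shares. Chm, an escort protein for Rab prenylation, rose in both (0.34 and 1.99), with the TAN call lost without TAN replicate 2 (0.0671) or vehicle replicate 1 (0.0632), and Rce1, a protease that trims prenylated proteins, changed by -0.19 with TANs, which passed only in the fit of the 2 groups alone (adjusted p = 0.0229) and without TAMo replicate 1 (0.0227) or TAMo replicate 2 (0.0222), and by -0.22 with TAMos, a call lost with libraries rescaled to the same sum (-0.026), without mitochondrial genes (-0.13) or without vehicle replicate 2 (adjusted p = 0.0553).

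By distance over the 6 libraries, on log2(FPKM + 1) relative to the vehicle mean, the genes outside all lists closest to the average course of the 10 GTPases were Parp14 (distance 0.078), Ipcef1 (0.13), Lrrc8d (0.20), Cuedc1 (0.21) and Klrd1 (0.22). Among the 10 themselves Irgm1 lay closest to the average (0.22) and Iigp1 farthest (2.08). Parp14, an ADP-ribosyltransferase, had 8.74 and 8.11 FPKM with TANs, 34.4 and 33.8 FPKM with TAMos and 11.7 and 11.7 FPKM with vehicle. Klrd1, the gene of the receptor chain CD94, had 10.1 and 11.0 FPKM with TANs, 46.4 and 45.1 FPKM with TAMos and 14.5 and 14.9 FPKM with vehicle.

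Neutrophil markers were near 0 beside these results. All 13 neutrophil markers stayed under 1 FPKM in every library and 6, S100a8 and S100a9 among them, were listed at 0. Their sum ran from 0.0739 to 0.14 FPKM with TANs, 0.335 to 0.584 FPKM with TAMos and 0.0492 to 0.0615 FPKM with vehicle. Of 13 monocyte and macrophage markers, 10 stayed under 1 FPKM in every library, C1qa and C1qb were listed at 0 and Csf1r did not exceed 0.0361 FPKM. The sum was 25.2 to 25.4 FPKM with TANs, 11.6 to 14.6 FPKM with TAMos and 32.6 to 33.0 FPKM with vehicle, most of it in the TAN and vehicle libraries from Ly6c2, which CD8+ T cells also express. Cd68 was at 3.63 and 7.05 FPKM with TAMos, against 2.95 and 2.35 FPKM with vehicle. Cd14, a monocyte marker, was at 2.84 and 3.17 FPKM with TAMos, against 0.0852 and 0.0563 FPKM with vehicle, and the part of these markers in the result was not tested. Of 12 markers of dendritic and B cells, 5 stayed under 1 FPKM, and the sum was 71.2 to 72.3 FPKM with TANs, 65.6 to 68.3 FPKM with TAMos and 89.5 to 91.5 FPKM with vehicle. Against that sum, H2-Eb1, an MHC class II gene, was at 14.1 and 14.0 FPKM with TAMos and 6.52 and 8.01 FPKM with vehicle, and Xcr1 at 0.687 and 0.533 FPKM with TAMos and 0.0451 and 0.0199 FPKM with vehicle. Their part in the result was not tested. The 9 T cell markers found in the table added up to 1553 to 1562 FPKM with TANs, 1797 to 1814 FPKM with TAMos and 1595 to 1618 FPKM with vehicle. Within that sum Cd2 was at 48.2 and 55.3 FPKM with TAMos, against 189 and 203 FPKM with vehicle. Cd8a was at 94.5 and 95.1 FPKM with TAMos, against 145 and 152 FPKM with vehicle, and Cd5 at 303 and 302 FPKM with TAMos, against 93.8 and 92.3 FPKM with vehicle.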

How the data were processed

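RNA of OT-I cells was sequenced in 2 libraries each with TANs, TAMos and vehicle. Per the labels' protocols, Trizol RNA was made into Illumina TruSeq libraries and run on a NovaSeq. The deposited values are FPKM, computed by the authors. Build mm10 and the tools featureCounts 1.5.0-p3, HISAT2 2.0.5 and CASAVA are named, without their roles, per the submitters' processing notes. The sources used here do not give the annotation, gene lengths, strand setting or handling of reads that match several genes. It is therefore not known whether reads of overlapping genes were separated.

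Columns were matched to samples by label. Of 25638 genes, 10727 reached 1 FPKM in 2 or more libraries and entered the test on log2(FPKM + 1) with limma 3.58.1 (R 4.3.3; eBayes moderation with a trend of variance on mean) in one fit of all 6 libraries, two-sided, with Benjamini-Hochberg adjustment over all genes tested. The fit was tested on simulated data. Coordinates, exons and transcripts came from GENCODE M21 on GRCm38, the assembly of mm10, and promoters from RefSeq on GRCm38.p6. Depth was read from whole-number steps of low values in 7708 genes with 1 transcript, within a tolerance of 0.1, which gave whole reads for 98.7% to 99.0% of them. FPKM are relative to the library, and the mitochondrial share of summed FPKM was 8.07% and 8.21% with TANs, 1.20% and 1.32% with TAMos and 8.15% and 8.34% with vehicle, so 4 scalings were tried. Alternatives numbered 17 per comparison. Genes outside the 10 were named by rule: all tested genes of the GTPase list, named signalling genes, of which 1 is not reported here, the 2 largest TAN changes of each further list and the 5 closest courses. Some further genes of the lists are named beside their counts. The 10 genes and all lists were chosen with earlier results of these data known.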

Additional observations from a re-analysis of the deposited data

How the results depend on the processing

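The number of the 10 genes called kept within 1.5 times of that reported under all 17 alternatives: 5 to 7 for TAN against vehicle, where 7 were reported, 8 to 10 for TAMo against vehicle, where 9 were reported, and 9 or 10 for TAN against TAMo. Leaving out 1 library gave 5 to 7, 9 to 10 and 10 to 10. Gbp2, Gbp4, Gbp9, Irgm1 and Iigp1 stayed called lower with TANs under all 17, and with TAMos so did the rises of all but Iigp1 wherever tested. For TAN against vehicle, 725 to 829 genes were called without 1 of the TAN or vehicle libraries and 1331 with no filter on low values, against 2180 as reported. Gbp6 was not tested at a mean of at least 5 FPKM. Igtp with TANs also missed with no filter (adjusted p = 0.1), the same sum (0.0516), median ratio scaling (0.0566), quantile normalisation (0.0529), no variance trend (0.126) and the replicate block (0.0539). Rescaled to the same sum, the median of all genes for TAMo against vehicle was 0.25, and that of the 10 was 1.73.

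Signs turned only for changes that did not pass as reported. Gbp3 with TANs ran from -0.050 to 0.028 without 1 library, above 0 without TAN replicate 2 or vehicle replicate 1. Irgc1 with TANs was -0.0048 with quantile normalisation and -0.086 to 0.10 without 1 library, and Irgq -0.036 to 0.085. With TAMos, Gvin1 was 0.046 at the same sum, Stat2 -0.046 with median ratio scaling and -0.012 to 0.048 without 1 library, where Mx1 ran from -0.11 to 0.25 and Irf7 from -0.00997 to 0.14. For TAN against TAMo, Gm12185 ran from -0.26 to 0.047 and Rce1 from -0.049 to 0.12 without 1 library. Rce1 was -0.16 at the same sum, where it was called (limma adjusted p = 0.0401), and -0.059 without mitochondrial genes. The cause was not tested.

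Replicate numbers are shared by the groups, but deviations of libraries with the same number correlated by only 0.057, 0.024 and 0.0078 over genes, so they were not taken as pairs. With the replicate block 6, 9 and 10 of the 10 genes were called in the 3 comparisons.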
